A study of Rattus norvegicus with 4 samples.

Results

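The primitive endoderm is the epithelium that forms on the inner cell mass of the blastocyst beside the naive epiblast, the tissue from which embryonic stem cells (ESCs) are derived. Its 10 marker genes *Gata4*, *Gata6*, *Sox17*, *Sox7*, *Pdgfra*, *Dab2*, *Amn*, *Cubn*, *Foxa2* and *Hnf4a* were followed in RNA-seq libraries of rat ESCs with and without *Thop1*. They were picked out by gene name, with earlier results of these data known, and all 10 were found among the 34773 genes of the deposited count table. The comparison holds 1 library of wild-type cells (WT), the rat ESC line DA-5-3 carrying a *Rex1*-GFP reporter, and 1 library of each of 3 *Thop1*-KO subclones (#1, #2 and #3), single colonies picked after Cas9 editing and puromycin selection of that reporter line. The study's methods describe culture on feeder cells in 2i/LIF medium, in which a MEK inhibitor (PD0325901), a GSK3 inhibitor (CHIR99021) and leukaemia inhibitory factor hold cells in the naive state. The description deposited with the series calls the sequenced cells haploid, whereas the paper describes DA-5-3 as diploid. With 1 control library, the genotype, the single culture and its library preparation cannot be told apart.

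Cells of the early inner cell mass choose between epiblast and primitive endoderm. FGF4 made by epiblast precursors acts through FGF receptors and ERK to keep *Gata6* on in primitive endoderm precursors, while NANOG holds the epiblast fate. GATA6 then leads into *Pdgfra*, *Sox17*, *Gata4* and *Sox7*, and the mature layer carries an endocytic machinery built from cubilin, amnionless and the adaptor DAB2. Naive ESC cultures are known to contain rare cells that switch such genes on.

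The targeted gene was checked first. *Thop1*, which encodes thimet oligopeptidase, had 370 CPM (reads scaled to library size, with the trimmed mean of M values, TMM) in WT and 110, 92.5 and 149 in #1, #2 and #3, so all 3 subclones lay below WT but kept reads of the gene (log2 fold change -1.66, standard error 0.29, adjusted p = 0.0187, edgeR quasi-likelihood test with Benjamini-Hochberg adjustment over 15028 genes). The libraries held between 15405499 and 17936544 reads on genes. *Pou5f1*, a core pluripotency factor, had 68758 to 85811 reads, and *Nanog* and *Sox2* had at least 4539 reads in every library, so the defining ESC markers were present in all 4. Of 14 fibroblast genes taken as markers of feeder cells, *Thy1*, *Dcn* and *Lum* had 0 reads in all 4 libraries, which allows up to 3 reads in each. The other 11 fibroblast genes had reads, *Col1a1* the most, and summed to 283 CPM in WT and 466 to 927 in the subclones. Their part in the results was not tested, and the species of the feeder cells is not given in the sources used here. In bulk RNA, more cells of a type and more RNA per cell cannot be told apart.

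All 10 primitive endoderm genes were expressed at a trace level. No library had more than 63 reads on any of them, and the highest level per length was 2.23 FPKM (reads per kilobase of exon, scaled per library by the authors), for *Amn* in WT. Over the 15028 genes tested, the median of the mean FPKM was 4.76 and the lower quartile was 1.22. All 6 primitive endoderm genes that passed the filter on low counts lay under that quartile. Summed over the 10 genes there were 109 reads in WT and 153, 130 and 138 in #1, #2 and #3. In CPM the sums were 7.34 in WT and 9.12, 7.35 and 7.68 in the subclones. The sums of #2 and #3 were close to that of WT, and #1 was the highest, with *Gata6* as its leading gene.

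**Figure D1:**
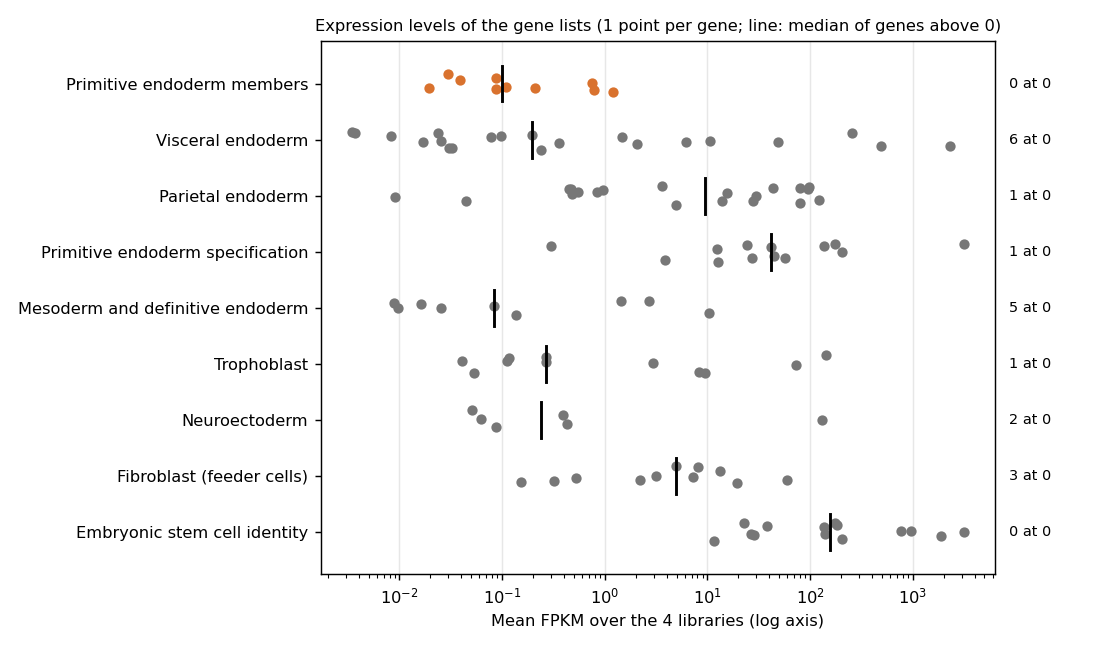
Mean FPKM over the 4 libraries for each gene of 9 lists, on a log axis, with 1 point per gene, a line at the median of genes above 0 and the number of genes listed at 0 on the right. The 10 primitive endoderm genes (orange) all lie near or below 1 FPKM, whereas the ESC identity genes lie above 10.

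Of the 10 genes, 6 had enough reads to be tested, a filter that asks for about 10 reads in at least 1 library and 15 in all. None of the 6 was called at an adjusted p under 0.05 by edgeR's quasi-likelihood test, while 13.8% of all genes tested were called (8.62% higher and 5.17% lower in *Thop1*-KO). At an unadjusted p under 0.05 there were 3 (*Sox17*, *Dab2* and *Gata4*), beside 34.0% of all genes tested. DESeq2's Wald test gave 5 of the genes an adjusted p and called 0, beside 21.3% of its genes, and 1 of the 10 had an unadjusted p under 0.05. A legend of the study gives a rule of p under 0.05 and a fold change of 2. The study used DESeq2, whereas the rule was applied here to edgeR's unadjusted p. By it *Sox17* and *Dab2* were called higher and *Gata4* lower, beside 26.9% of all genes tested. *Gata4* passed the filter through the WT library alone and *Dab2* through #2 alone, so these had to differ between libraries in order to be tested. *Gata6* and *Pdgfra*, at 9 and 2 reads in WT, passed it through subclones alone. WT was the lowest library for 4 of the 10 genes and the highest for 3, and fell between the subclones, or tied with one, for the other 3. Over all genes tested, WT lay below the subclones in 38.1% and above them in 37.6%, and of the 6 primitive endoderm genes tested WT lay below in 4 and above in 2. With 6 genes, of which *Gata4* and *Dab2* entered through 1 library each and *Gata6* and *Pdgfra* through subclones alone, nothing is read from these counts.

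**Figure D2:**
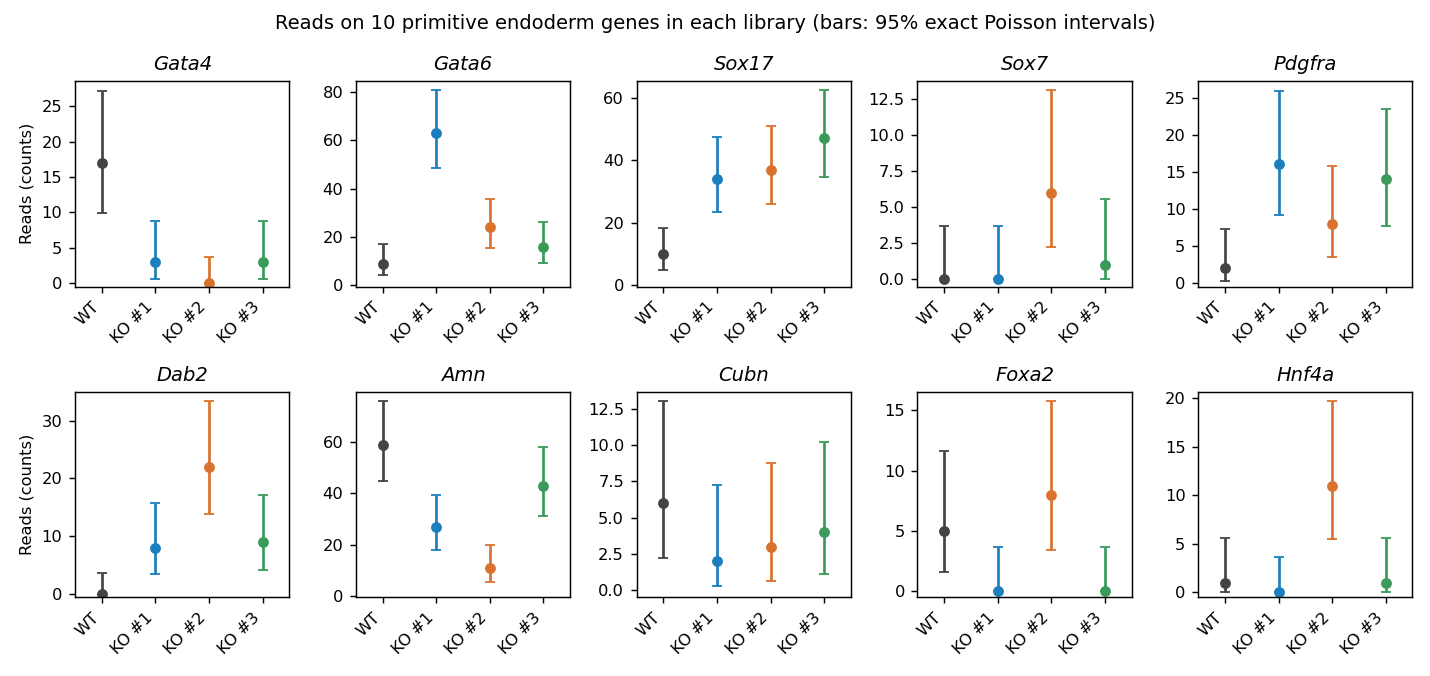
Reads on each of the 10 primitive endoderm genes in WT and in *Thop1*-KO #1, #2 and #3, with 95% exact Poisson intervals that cover counting error only; each panel has its own axis starting near 0. *Sox17*, *Gata6*, *Pdgfra* and *Dab2* are lowest in WT, *Gata4*, *Amn* and *Cubn* are highest in WT, and *Foxa2*, *Hnf4a* and *Sox7* are highest in #2.

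The GATA pair came first in the order of the pathway. *Gata6* (ENSRNOG00000023433, chromosome 18, 2416552 to 2446338, plus strand of the deposited annotation, whose genome build is not given in the sources used here) encodes the zinc finger factor that starts the primitive endoderm programme. It had 9 reads in WT and 63, 24 and 16 in #1, #2 and #3. All 3 subclones were above WT, but #1 was 4.22 times #3 in CPM, a wider spread than the pooled ratio of *Thop1*-KO to WT, 3.24. The level was 3.76, 1.36 and 0.890 CPM against 0.606 in WT (log2 fold change 1.71, standard error 1.04, adjusted p = 0.283, edgeR). Without #1 the log2 fold change of *Gata6* was 0.89.

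*Gata4* (ENSRNOG00000010708, chromosome 15, 46386712 to 46432965, minus strand), its relative that acts after *Gata6* and that the study used elsewhere as a differentiation gene in qPCR, went the other way. It had 17 reads in WT and 3, 0 and 3 in the subclones. The 95% exact Poisson interval was 9.90 to 27.2 reads in WT and reached no further than 8.77 reads in any subclone, so these intervals did not overlap. *Gata4* entered the test through WT alone, where it was high. Nothing is therefore read from that gap or from the ratio that follows. The pooled ratio of WT to *Thop1*-KO was 9.99, with a 95% exact interval of 3.76 to 31.0 that covers counting error alone. With the spread between subclones included, edgeR's unadjusted p was 0.0398. The difference did not pass after adjustment over all genes tested (log2 fold change -3.24, standard error 1.27, adjusted p = 0.128, edgeR). The pair of GATA factors thus had opposite signs, and neither difference was called.

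The SOX factors of the F subgroup, *Sox17* and *Sox7*, stood far apart in level. *Sox17* (ENSRNOG00000027357, chromosome 5, 14890408 to 14895907, plus strand), needed for the later primitive endoderm and for definitive endoderm, had 10 reads in WT and 34, 37 and 47 in the subclones. Each subclone was above WT, and the 3 subclones were close to each other, at 2.25 ± 0.323 CPM (SD, n = 3) against 0.673. The difference did not pass (log2 fold change 1.73, standard error 0.66, adjusted p = 0.121, edgeR). Its coefficient of variation over the subclones, 14.4%, was the lowest of the 10 genes and below the median of 23.4% over all genes tested. *Sox7* (ENSRNOG00000012049, chromosome 15, 47293699 to 47300460, plus strand), a close relative found in parietal endoderm, had 0 reads in WT and 0, 6 and 1 in the subclones. It was not tested, and with WT at 0 and the subclones' mean under the floor of 3 reads no fold is given.

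*Pdgfra* (ENSRNOG00000002244, chromosome 14, 35527927 to 35581031, minus strand) encodes the receptor for PDGF-A that marks primitive endoderm precursors and also fibroblasts. It had 2 reads in WT and 16, 8 and 14 in the subclones. All 3 subclones were above WT, with a pooled ratio of 5.39 whose 95% exact counting interval ran from 1.39 to 46.1. The difference did not pass (log2 fold change 2.37, standard error 1.23, adjusted p = 0.218, edgeR). Among the subclones *Pdgfra* was lowest in #2, where the fibroblast genes were highest, but the 95% exact Poisson intervals of its counts overlapped across the subclones. Its ligand gene *Pdgfa* was expressed at 76.4 CPM in WT and 87.5, 51.6 and 55.3 in the subclones (log2 fold change -0.24, standard error 0.35, adjusted p = 0.659, edgeR).

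The endocytic genes act in the mature layer. *Dab2* (ENSRNOG00000028930, chromosome 2, 55747318 to 55768270, plus strand), the clathrin adaptor whose expression in this lineage depends on GATA6, had 0 reads in WT and 8, 22 and 9 in the subclones. Every subclone was above WT. The subclones' mean in CPM was 3.67 times the level that the floor of 3 reads has in the WT library. That ratio is not a lower bound. The exact Poisson interval of the WT count reached 3.69 reads, above the floor, and the spread between subclones is left out. *Dab2* had the smallest p of the 10 genes (unadjusted 0.0208, adjusted p = 0.0894, edgeR), which did not pass. *Amn* (ENSRNOG00000009050, chromosome 6, 135724455 to 135731896, plus strand), which encodes amnionless, the membrane anchor of cubilin, had 59 reads in WT and 27, 11 and 43 in the subclones. WT was above all 3 subclones, at 3.97 CPM against 1.54 ± 0.887 (SD, n = 3), which did not pass (log2 fold change -1.36, standard error 0.72, adjusted p = 0.229, edgeR). *Cubn* (ENSRNOG00000029047, chromosome 17, 80584878 to 80807243, minus strand), the multiligand receptor itself, had 6 reads in WT and 2, 3 and 4 in the subclones over 11531 bases of exon, and was not tested. The intervals of its counts overlapped in all 4 libraries.

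*Foxa2* and *Hnf4a*, forkhead and nuclear receptor factors of visceral endoderm, were near the limit of detection. *Foxa2* (ENSRNOG00000013133, chromosome 3, 142383278 to 142387481, listed on the plus strand) had 5 reads in WT and 0, 8 and 0 in the subclones. *Hnf4a* (ENSRNOG00000008895, chromosome 3, 159902441 to 159965003, plus strand) had 1 read in WT and 0, 11 and 1 in the subclones. For both genes WT lay inside the range of the subclones, and the difference between subclones was larger than that from WT. Neither passed the filter. In a fit without that filter their log2 fold changes were -1.09 (standard error 1.93) and 1.67 (standard error 2.37), each smaller than its standard error.

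By level per length, the order of the 10 genes was not the same in the 2 genotypes. In WT, *Amn* led at 2.23 FPKM, followed by *Gata4* at 0.336, *Sox17* at 0.285, *Gata6* at 0.277 and *Foxa2* at 0.149. *Cubn* at 0.0345, *Pdgfra* at 0.0204 and *Hnf4a* at 0.0141 followed, with *Sox7* and *Dab2* listed at 0. In *Thop1*-KO, *Sox17* at 0.950 ± 0.127 FPKM, *Gata6* at 0.917 ± 0.711 and *Amn* at 0.861 ± 0.490 (SD, n = 3) led and lay within each other's spread. *Dab2* followed at 0.280 ± 0.165 FPKM and *Pdgfra* at 0.110 ± 0.0388. *Foxa2*, *Hnf4a*, *Sox7*, *Gata4* and *Cubn* came last, between 0.0670 and 0.0145 FPKM, and of these *Foxa2*, *Hnf4a* and *Sox7* had SDs larger than their means.

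The order of the subclones was not the same for every gene. *Foxa2*, *Hnf4a* and *Sox7*, picked here after their values were seen, together had 25 reads in #2, 0 in #1, 2 in #3 and 6 in WT. *Dab2* was also highest in #2. By contrast *Gata6* and *Pdgfra* were highest in #1, *Sox17*, *Amn* and *Cubn* were highest in #3, and *Amn* and *Gata4* were lowest in #2. For *Sox17*, *Pdgfra*, *Cubn*, *Gata4*, *Sox7*, *Foxa2* and *Dab2* the exact Poisson intervals of the subclones' counts overlapped. No order of the subclones is read for any of these genes taken singly. All 11 fibroblast genes with reads were highest in #2 among the subclones, and their list summed to 927 CPM in #2, 466 in #1, 605 in #3 and 283 in WT. *Col1a1* had 9818 reads in #2, 5097 in #1, 6713 in #3 and 2829 in WT. *Col3a1* had 1414, 271, 663 and 95 reads in the same order, and *Pdgfrb* had 110, 29, 44 and 24. *Dab2*, like the fibroblast list, was lowest in WT and highest in #2, while its 8 and 9 reads in #1 and #3 were not distinguishable. *Gata6*, *Pdgfra* and *Sox17* were likewise lowest in WT but were not highest in #2. The part of fibroblast RNA in these reads was not tested.

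**Figure D3:**
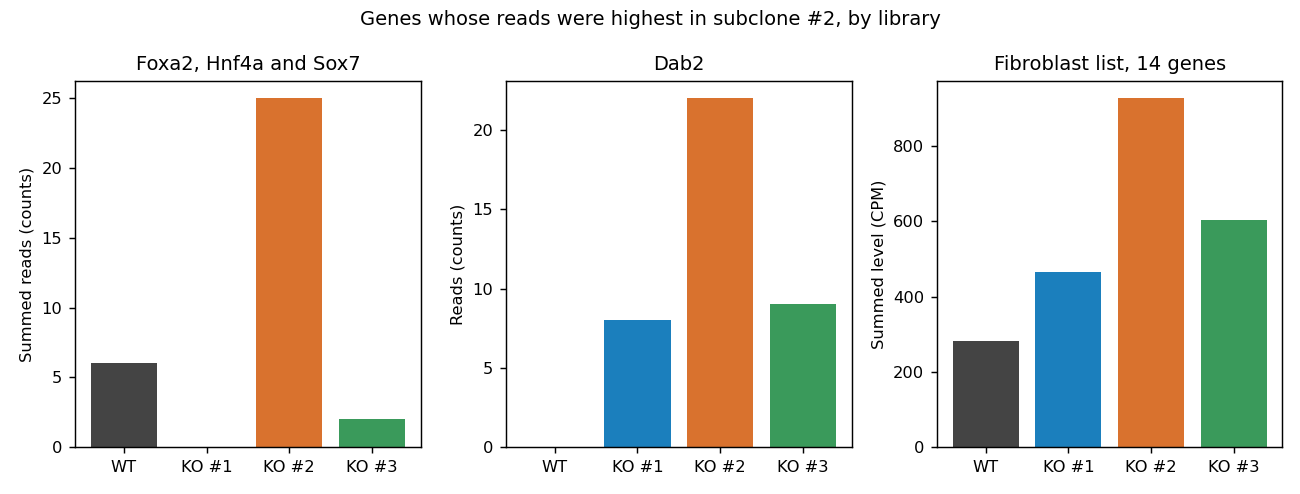
Summed reads on *Foxa2*, *Hnf4a* and *Sox7* (left), reads on *Dab2* (middle) and the summed CPM of the 14 fibroblast genes of the table (right) in WT and *Thop1*-KO #1, #2 and #3. Subclone #2 has the tallest bar in each panel, with 25 reads, 22 reads and 927 CPM.

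Of the 6 genes tested, the biological coefficient of variation estimated by edgeR had a median of 50.7%, where the median over all genes tested was 29.6%. Of the 6 log2 fold changes 4 were above 0 and 2 below, with a median of 1.72 beside 0.06 over all genes tested. Nothing is read from that median, since a low gene enters the test through the library in which it is high.

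The genes lie apart in the genome, except that *Gata4* and *Sox7* are neighbours on chromosome 15 with a gap of 860734 bases, and *Foxa2* and *Hnf4a* share chromosome 3. Of the 12 genes between *Gata4* and *Sox7*, 5 were tested and 0 were called (edgeR), beside 13.8% of all genes tested. Only *Pdgfra* overlaps another listed gene, a miRNA gene with 0 reads, so no gene counted here shares its reads with an expressed overlapping gene. Among the 20 nearest genes on either side, 10 were tested and, beside 13.8% of all genes tested, 1 was called. That gene was *Sumo4*, a SUMO family gene 87464 bases from *Sox17* on the side of higher coordinates, with 191 reads in WT and 867, 933 and 739 in the subclones (log2 fold change 1.92, standard error 0.33, adjusted p = 0.0178, edgeR). *Neil2*, a DNA glycosylase gene 4745 bases from *Gata4* on the side of lower coordinates, had 74 reads in WT and 317, 154 and 390 in the subclones (log2 fold change 1.72, standard error 0.60, adjusted p = 0.0984, edgeR), opposite in sign to *Gata4*.

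RefSeq promoter windows of assembly GRCr8, from 250 bases before to 50 after a start, were found for 7 of the 10 genes in 8 windows, *Hnf4a* having a pair of starts. *Gata4*, *Sox17* and *Sox7* were not matched. The windows were searched on both strands for AGATAA, a form of the GATA factor motif, and for ACAAAG, a core of SOX motifs, both picked after the matches of 17 short strings in these windows had been looked at. AGATAA was found in 2 of the 8 windows, those of *Cubn* and of one *Hnf4a* start, and in 11.6% of the 33469 windows of all genes. ACAAAG was in 0 of the 8 windows and in 18.8% of all, while the shorter CAAAG was in 5 of the 8 and in 53.8% of all. The 2 windows with a match are shown, with AGATAA in capitals, beside that of *Dab2*, the gene with the smallest p, which held neither motif and is in lower case throughout. They are chr17:81501645-81501944 (minus strand) for *Cubn*, chr3:172605970-172606269 (plus strand) for *Hnf4a* and chr2:57272050-57272349 (plus strand) for *Dab2*.
Cubn: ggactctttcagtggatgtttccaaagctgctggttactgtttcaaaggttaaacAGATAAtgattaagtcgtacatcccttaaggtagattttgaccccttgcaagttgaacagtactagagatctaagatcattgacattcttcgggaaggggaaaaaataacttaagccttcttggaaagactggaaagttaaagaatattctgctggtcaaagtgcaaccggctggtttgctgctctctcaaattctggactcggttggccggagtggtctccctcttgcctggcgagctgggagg
Hnf4a: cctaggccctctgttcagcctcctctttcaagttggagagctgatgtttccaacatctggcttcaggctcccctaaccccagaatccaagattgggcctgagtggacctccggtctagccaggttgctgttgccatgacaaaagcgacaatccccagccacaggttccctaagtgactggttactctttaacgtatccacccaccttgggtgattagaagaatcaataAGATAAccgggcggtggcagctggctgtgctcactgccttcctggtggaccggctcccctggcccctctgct
Dab2: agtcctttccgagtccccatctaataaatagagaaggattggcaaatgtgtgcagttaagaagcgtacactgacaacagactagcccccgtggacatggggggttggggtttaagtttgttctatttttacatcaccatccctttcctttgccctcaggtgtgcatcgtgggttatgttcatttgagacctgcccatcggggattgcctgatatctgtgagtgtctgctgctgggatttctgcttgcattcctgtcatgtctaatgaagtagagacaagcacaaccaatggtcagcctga
The match begins 195 bases before the start in *Cubn* and 22 bases before it in *Hnf4a*, both in the direction of transcription. Both genes were among the 4 with too few reads to be tested, and nothing about binding follows from these letters.

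Of the 14 genes listed for the choice of this lineage, *Rspo3*, a Wnt agonist gene, had 0 reads in all 4 libraries, *Fgfr2* had at most 38, and the other 12 had at least 1721 reads each, summed over the libraries. Leaving out #2 raised the calls over all genes tested in either direction, which bears on each count below that leaves it out. Of the 13 specification genes tested, 3 were called higher and 0 lower in *Thop1*-KO, beside 8.62% and 5.17% of all genes. The list's median log2 fold change was 0.60. Without #2, 6 were called higher. *Fgf4*, the ligand that epiblast cells send to primitive endoderm precursors, had 151 reads in WT and 1889, 1598 and 2016 in #1, #2 and #3. Its level rose from 10.2 CPM to 105 ± 12.7 (SD, n = 3; log2 fold change 3.37, standard error 0.33, adjusted p = 0.00678, edgeR). *Fgfr1*, the FGF receptor of both epiblast and primitive endoderm, rose from 46.5 CPM to 248 ± 70.3 (log2 fold change 2.41, standard error 0.39, adjusted p = 0.0154, edgeR). *Il6st*, which encodes the gp130 subunit of the LIF receptor complex, rose from 9.69 CPM to 48.8 ± 14.3 (log2 fold change 2.33, standard error 0.44, adjusted p = 0.0233, edgeR). *Fgfr2*, the receptor enriched in primitive endoderm, had 23 reads in WT and 6, 38 and 32 in the subclones, which overlap WT. *Nanog*, whose product opposes *Gata6*, had a log2 fold change of -0.21 (standard error 0.27), and *Pou5f1* had -0.09 (standard error 0.20), neither called. *Fgf4* and *Fgfr1* were called in all 12 alternative settings, and *Il6st* in 10 of 12, losing its call without #3 (adjusted p = 0.0638, edgeR) and with limma at a pseudocount of 0.1.

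The parietal endoderm list holds basement membrane genes that other cells also make. Of its 18 genes tested, 2 were called higher and 0 lower, beside 8.62% and 5.17% of all genes tested. An unadjusted p under 0.05 was reached by 9 of them, beside 34.0% of all genes tested. The 2 called genes were *Lamc1* and *Lamb1*, the gamma and beta chains of laminin. Without #2, 6 genes of the list were called higher and 1 lower, and without #1 4 were called higher and 0 lower. With DESeq2 there were 4 higher and 1 lower. Over 13 alternatives the calls ranged from 1 to 6 higher and from 0 to 3 lower. *Lamc1* rose from 23.2 CPM in WT to 135, 109 and 113 in the subclones (log2 fold change 2.36, standard error 0.30, adjusted p = 0.00870, edgeR). *Lamb1* rose from 67.6 CPM to 207, 168 and 193 (log2 fold change 1.49, standard error 0.27, adjusted p = 0.0200, edgeR), a call lost without #3 (adjusted p = 0.0872) and with limma at a pseudocount of 0.1. The list's median log2 fold change was 0.76, and 14 of the 18 were above 0. *Sparc*, a matrix protein gene that fibroblasts also express, had 1612 reads in WT and 2775, 5710 and 3670 in the subclones and was not called (adjusted p = 0.116, edgeR). Like the fibroblast genes *Sparc* was highest in #2, whereas *Lamc1* and *Lamb1* were lowest there. Of the 19 genes of the list with reads in the subclones, 9 were highest in #2. The part of fibroblast RNA in these genes was not tested.

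The visceral endoderm list had 27 genes in the table. Of the 11 tested, edgeR called 0, beside 13.8% of all genes tested. An unadjusted p under 0.05 was reached by 1, beside 34.0% of all genes tested. Without #2, 1 was called higher and 1 lower. Of the 27, 13 had no more than 3 reads in any library, and 6 of these were at 0 in all 4. Among secreted products typical of this layer, *Ttr* was at 1 read in WT and 0 elsewhere, *Afp* at 2 in WT and 0, 1 and 1 in the subclones, and *Apoa1* at 0 throughout. Other genes of the list that are also made outside this layer were abundant, among them *Apoe*, an apolipoprotein gene, at 40205 to 86772 reads, and *Lefty1*, a Nodal antagonist gene, at 9888 to 17631. *Foxa1* and *Foxa3*, relatives of *Foxa2*, had at most 2 and 5 reads. The list's median log2 fold change was 0.37.

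The partners of *Pdgfra*, *Dab2* and *Cubn* were tested in the same way. Of 13 endocytic genes tested, 2 were called higher and 0 lower, beside 8.62% and 5.17% of all genes tested. The list's median log2 fold change was -0.07. *Ap2b1*, a subunit of the AP2 clathrin adaptor, rose from 27.1 CPM to 66.0 ± 4.08 (log2 fold change 1.29, standard error 0.27, adjusted p = 0.0299, edgeR), and *Rab5a*, an early endosome GTPase gene, from 1.21 to 8.94 ± 1.59 (log2 fold change 2.88, standard error 0.50, adjusted p = 0.0186, edgeR). Both calls were lost without #3 (adjusted p = 0.132 and 0.0703, edgeR), and that of *Ap2b1* also with limma at a pseudocount of 0.1 and with the gene length correction. Without #2, 4 genes of the list were called higher and 2 lower. *Lrp2*, megalin, the partner receptor of cubilin, had 41 reads in WT and 44, 70 and 50 in the subclones (log2 fold change 0.18, standard error 0.52). Of 7 PDGF family ligands and receptor tyrosine kinases tested, *Kit* alone was called, beside 13.8% of all genes tested. *Kit* rose from 32.2 CPM in WT to 103 ± 0.973 (log2 fold change 1.68, standard error 0.26, adjusted p = 0.0144, edgeR). The call of *Kit* was lost without #3 (adjusted p = 0.0694, edgeR). *Kit* lies on chromosome 14 like *Pdgfra*, from 35072108 to 35149610.

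Genes of other lineages were counted in the same way, beside 8.62% called higher and 5.17% called lower over all genes tested. An unadjusted p under 0.05 was reached by 34.0% of all genes tested. Of the genes tested, 0 of 3 mesoderm and definitive endoderm genes and 0 of 7 trophoblast genes were called by edgeR, and 0 of these had an unadjusted p under 0.05. These counts depended on #2, without which 1 mesoderm and definitive endoderm gene was called higher, and 2 trophoblast genes higher and 1 lower. Of 4 neuroectoderm genes 1 was called, *Nes*, an intermediate filament gene, which fell from 8.48 CPM in WT to 0.420 ± 0.289 (log2 fold change -4.31, standard error 0.68, adjusted p = 0.0147, edgeR). An unadjusted p under 0.05 was reached by 2 of the 4, *Nes* and *Zic1*. *Zic1* went the other way, with 0 reads in WT and 10, 33 and 20 in the subclones, and was not called (adjusted p = 0.0558, edgeR). It entered the test through subclones alone. With DESeq2 or without #1, 1 gene of the list was called higher and 1 lower, and without #2 1 higher and 2 lower. Of 11 fibroblast genes 1 was called higher, *Col5a1* (log2 fold change 1.63, standard error 0.39, adjusted p = 0.0399, edgeR). The median log2 fold change of the 11 was 1.52, with 8 above 0 and 3 below. The call of *Col5a1* held in 8 of 12 settings and was lost without #3 (adjusted p = 0.102), with limma at either pseudocount and with the gene length correction. Without #1 or without #2, 4 fibroblast genes were called higher. Of the ESC identity genes, 4 were called higher and 1 lower among 14 gene IDs tested. The 3 highest log2 fold changes were those of *Esrrb* (4.30), *Fgf4* (3.37) and *Tfcp2l1* (2.89). *Utf1* fell by 1.51 on the log2 scale, a call lost with limma at a pseudocount of 0.1 (adjusted p = 0.0849).

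**Figure D4:**
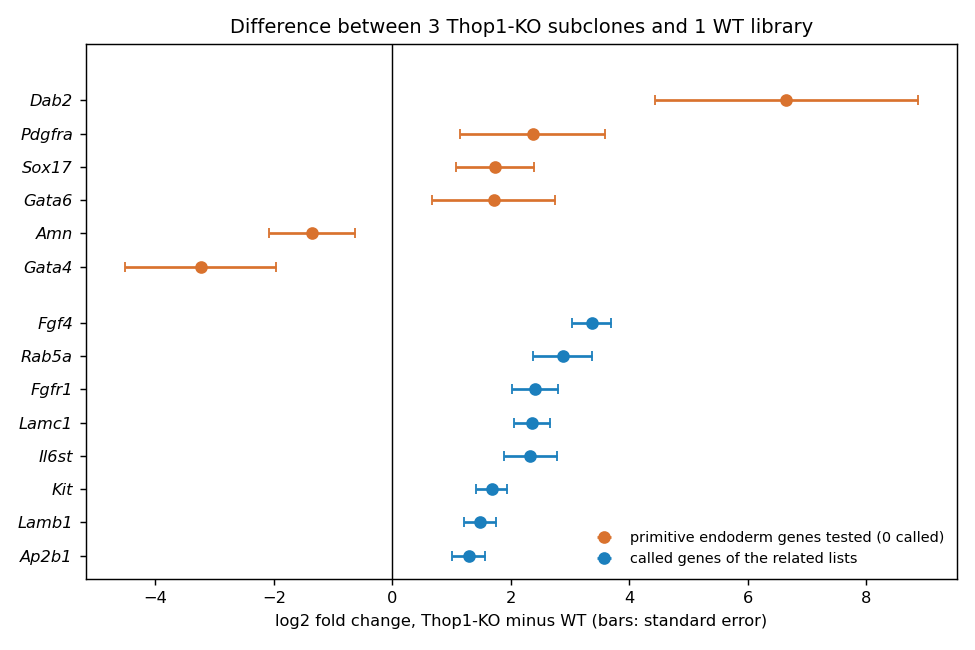
Log2 fold change of *Thop1*-KO against WT from edgeR, with standard errors derived from the F statistic of its test, for the 6 primitive endoderm genes tested (orange, 0 called) and the 8 called genes of the specification, parietal endoderm, PDGF and endocytic lists (blue). The blue genes range from 1.29 to 3.37 with narrow bars; the orange genes fall on both sides of 0 with wide bars, and the point of *Dab2*, at 0 reads in WT, depends on the small count added before taking logs.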

How the data were processed

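Rat ESC libraries (1 WT, 3 *Thop1*-KO subclones) were made from poly(A) RNA. The authors cleaned reads with the FASTX toolkit, and the submitters' processing notes name HISAT2 2.0.5 and featureCounts 1.5.0-p3. The genome build and strand setting are not given in the sources used here. The authors deposited raw counts per gene and FPKM values. FPKM was recomputed from count and gene length with 1 constant per library, and for genes with at least 100 reads all values came within 1% of it.

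Counts were tested with edgeR 4.0.16 in R 4.3.3 (filterByExpr with a minimum count of 10 and total of 15, TMM, quasi-likelihood test, Benjamini-Hochberg adjustment over all 15028 genes tested, threshold 0.05). The test was checked on simulated data. The spread comes from the 3 subclones, and an exact permutation test of 1 library against 3 could not give a one-sided p under 0.25, so the p-values rest on the variance model. Intervals of counts (Poisson) and ratios (Clopper-Pearson) were exact, at 95%, and cover counting error only. A floor of 3 reads was used. Folds are *Thop1*-KO against WT. The quasi-likelihood test reports no standard error. Those given are the absolute log2 fold change divided by the square root of the test's F statistic, so they restate the test. Figures were made with matplotlib 3.10.9.

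Alternatives were DESeq2 1.42.0, other scalings, other filters, limma 3.58.1 on log2 FPKM with a pseudocount of 1 or of 0.1, a loess correction for gene length (span 0.3), a rule with a fold change of 2, and leaving out each subclone. The genes and lists were chosen with earlier results of these data known. Genes named are the 10 markers, *Thop1*, defining ESC and fibroblast markers, up to 3 called genes per list and direction, and nearest genes. *Rspo3*, *Sparc*, *Pdgfa*, *Lrp2*, *Fgfr2*, *Ttr*, *Afp*, *Apoa1*, *Foxa1*, *Foxa3*, *Apoe*, *Lefty1*, *Dcn*, *Lum* and *Zic1* were named after their values were seen.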

Additional observations from a re-analysis of the deposited data

How the results depend on the processing

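Across 12 alternative settings, all 67 fold changes obtained for the 6 primitive endoderm genes kept their sign, and none passed an adjusted p of 0.05 (DESeq2 gave *Gata4* none). For all 6 genes WT lay outside the range of the subclones, so leaving out a subclone could not turn the sign. The other settings use the same libraries, and nothing is read from the agreement in sign. The size of the fold changes depended on the pseudocount. With limma on log2(FPKM + 1) the log2 fold change was 0.35 for *Dab2*, 0.12 for *Pdgfra* and -0.37 for *Gata4*, since values far under 1 FPKM are pressed together there. The lowest adjusted p was 0.0620, for *Sox17* under limma on log2(FPKM + 0.1). Of the rules tried, only edgeR's unadjusted p with a fold change of 2 called any of the 10 genes, 2 higher and 1 lower. *Dab2* could not be tested without #2, where it failed the filter.

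With limma and a pseudocount of 0.1, *Thop1* had a log2 fold change of -1.69 and no longer passed (adjusted p = 0.0693). The calls over all genes, 1295 higher and 777 lower, became 1984 higher with DESeq2, 350 lower with limma on log2(FPKM + 0.1), and 2443 higher and 1597 lower with the rule of an unadjusted p and a fold change of 2. Leaving out 1 subclone moved them to between 354 and 3096 higher and between 103 and 2476 lower, the low values without #3 and the high values without #2. Over the genes of the other lists, 12 higher and 2 lower calls became 6 to 31 higher and 2 to 11 lower when 1 subclone was left out. With the fold change rule they were 19 higher and 6 lower. Lower calls in those lists were 5 with upper quartile factors, 4 with limma on log2(FPKM + 1) and 1 with limma on log2(FPKM + 0.1). The cause of these moves was not tested. No paired analysis was possible because WT has 1 library and its label carries no replicate number. No gene of the 10 had more than 63 reads in a library, which limits the precision of every value given for them.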
